A study of Homo sapiens with 2 samples.

Results

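The genes described are 9 that carry, take up, store or convert retinol (vitamin A alcohol), or carry thyroid hormone: TTR, RBP4, CRABP1, CRABP2, STRA6, LRAT, RDH10, DHRS3 and RARRES1. They were chosen by gene symbol, and all 9 were found among the 57820 genes listed. They were measured by RNA-seq of poly(A)-selected RNA in the human liver cancer lines SKHEP1 and HepG2, as 1 library of each. SKHEP1 carries the label endothelial cells, and HepG2 the label hepatocellular carcinoma. Both are unmodified (labelled WT) and were grown in DMEM with fetal bovine serum and no further treatment. The design text names the transcript variants of the long noncoding RNA PURPL as the subject of the study, so the comparison of carrier genes between the lines is not one it states.

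Retinol travels in plasma bound to retinol-binding protein 4 (RBP4), which is made mainly by hepatocytes and circulates in a complex with transthyretin (TTR). Transthyretin also carries thyroxine, and shares that task with thyroxine-binding globulin and albumin. Inside cells retinol is esterified for storage by LRAT, chiefly in hepatic stellate cells, or oxidised to retinaldehyde and then to retinoic acid, the ligand of the nuclear receptors RARA, RARB and RARG. CRABP1 and CRABP2 bind retinoic acid inside the cell.

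The libraries held 19940557 expected counts in SKHEP1 and 22477757 in HepG2, and 13846 and 13418 genes, respectively, reached 10 counts. Expected counts are RSEM's estimates of reads per gene, and counts-per-million (CPM) are these counts over the scaled library size. No line has a replicate, so no difference was checked against replicate spread and none was tested. The exact 95% intervals cover counting error only, and even there they can be too narrow, as reads copied by PCR and counted without molecular identifiers are not independent. A level of 3 counts, the floor used where a gene had 0 counts, is 0.148 CPM in SKHEP1 and 0.135 CPM in HepG2. In these bulk libraries fewer cells expressing a gene and less RNA per cell cannot be told apart. Of 8 hepatocyte markers, 7 were at 0 counts in SKHEP1 and all 8 were at least 4-fold higher in HepG2, and their summed level was 95.5 TPM (transcripts-per-million) against 50265 TPM. Of 8 endothelial markers, 5 were under 10 counts in both lines, among them CDH5 with 1 count and KDR with 0 in SKHEP1, and ENG was the 1 marker higher in SKHEP1 by 4-fold or more, with 1926 against 18 counts. The defining markers CDH5 and KDR do not bear out the label of SKHEP1. Of 8 mesenchymal markers, 5 reached 10 counts in SKHEP1 and 0 in HepG2, and these 5 were at least 4-fold higher in SKHEP1. Since they passed the minimum through SKHEP1 alone, the direction of that count was largely set by the minimum. Their sizes were not: VIM had 144720 counts in SKHEP1 against 2, and LUM, the lowest of the 5, had 69 against 0. The other 3 mesenchymal markers had at most 7 counts in either line. The same limit on direction applies to the 7 hepatocyte markers at 0 counts in SKHEP1, which passed through HepG2 alone. Bile duct markers were split (1 higher in each line and 3 within 4-fold). No marker of retinal pigment epithelium or choroid plexus reached 10 counts.

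Sequence upstream of the start site is shown for RBP4, which differed most between the lines, for LRAT, which went the other way, and for CRABP1, which had no counts in either. Each stretch is the 250 bases before a start site annotated by RefSeq on GRCh38.p14, matched by symbol and given 5′ to 3′ on the gene's strand. The count tables were made on hg19, and no coordinate was carried between the builds. RefSeq gives 3 such windows for RBP4, and the one shown, chosen after all 3 were seen, is at chr10:93601236-93601485 on the minus strand. The LRAT window is at chr4:154743750-154743999 and the CRABP1 window at chr15:78340103-78340352, both on the plus strand. Capitals mark the TATAAA hexamer (a TATA box match), searched on both strands.
RBP4: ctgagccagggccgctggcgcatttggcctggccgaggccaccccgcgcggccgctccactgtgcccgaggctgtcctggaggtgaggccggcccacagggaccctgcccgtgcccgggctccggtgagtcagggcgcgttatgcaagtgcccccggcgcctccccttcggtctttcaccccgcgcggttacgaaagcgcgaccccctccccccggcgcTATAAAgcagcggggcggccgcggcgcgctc
LRAT: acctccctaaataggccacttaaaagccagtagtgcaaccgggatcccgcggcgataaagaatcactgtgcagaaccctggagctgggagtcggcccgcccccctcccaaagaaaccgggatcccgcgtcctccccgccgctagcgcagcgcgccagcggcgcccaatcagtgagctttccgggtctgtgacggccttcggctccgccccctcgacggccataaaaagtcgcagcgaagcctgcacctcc
CRABP1: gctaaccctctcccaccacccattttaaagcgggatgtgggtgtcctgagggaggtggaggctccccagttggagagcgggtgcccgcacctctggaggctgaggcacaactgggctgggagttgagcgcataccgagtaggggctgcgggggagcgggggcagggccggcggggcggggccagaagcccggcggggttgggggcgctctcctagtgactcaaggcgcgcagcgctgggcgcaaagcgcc
The hexamer lies at position -31 from the start in the RBP4 window shown, at -225 in the second RBP4 window, and was not found in the third or in the LRAT or CRABP1 window. It occurs in 10.7% of the 35116 RefSeq windows of this length. G and C make up 74.8% of the RBP4 window shown and 56.8% and 41.6% of the other RBP4 windows, 64.4% of the LRAT window and 70.0% of the CRABP1 window, against a median of 58.0% over all windows. The LRAT window holds 24 CG dinucleotides, the CRABP1 window 18 and the RBP4 windows 31, 12 and 7, against a median of 11. RefSeq windows were matched for 7 of the 9 genes, 15 windows in all, and TTR and RDH10 were not matched. The DR5 motif, a pair of AGGTCA hexamers spaced by 5 bases to which RAR and RXR dimers are known to bind, was in none of the 15 windows. Only this exact form was searched, and it was in 1 of all windows, or 0.00285%. Its absence from 15 windows was thus near certain beforehand and does not show that they lack such a site. The matches describe the letters and say nothing of binding in these cells.

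The carrier genes fell into 3 patterns. The plasma carriers RBP4 and TTR were abundant in HepG2 and had 0 counts in SKHEP1. The retinol and retinaldehyde enzymes RDH10 and DHRS3 were expressed in both lines within 4-fold. The other genes were at the edge of detection or below it: CRABP2, STRA6 and LRAT had between 0 and 15 counts, and CRABP1 and RARRES1 had none in either library. Of the 7 carrier genes that reached 10 counts in a library, 2 were higher in HepG2 by 4-fold or more, 2 were higher in SKHEP1 by that measure, and 3 differed less. Among all 15455 genes that reached 10 counts, 13.0% were higher in HepG2 by 4-fold or more and 16.5% in SKHEP1. The median log2 ratio, HepG2 over SKHEP1, was 0.76 over the 7 genes and -0.03 over all genes. The 7 genes include those that reached 10 counts in only a single line, so that count and median support no direction.

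**Figure D1:**
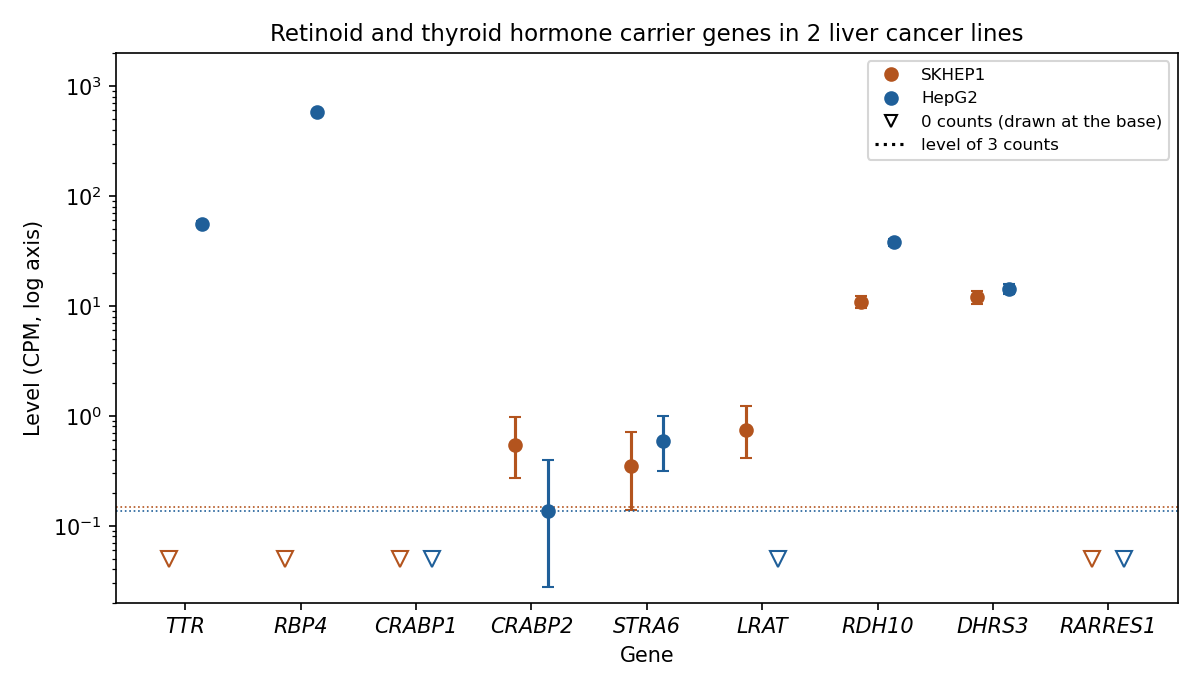
Level of each of the 9 genes in CPM on a log axis in SKHEP1 (brown) and HepG2 (blue), 1 library each, with exact 95% Poisson intervals. Open triangles are genes with 0 counts, drawn at the base of the plot, and dotted lines mark the level of 3 counts in each library. RBP4 and TTR are high in HepG2 and at 0 in SKHEP1, RDH10 and DHRS3 are above 10 CPM in both, and the other 5 genes are at or under 0.742 CPM.

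RBP4 (ENSG00000138207.8, chromosome 10, protein-coding), the plasma carrier of retinol, was at 13021 counts in HepG2, against 0 in SKHEP1. The HepG2 level was 587 CPM (interval 577 to 597), or 1294 TPM in the deposited values. RBP4 ranked 119 by TPM among the 18417 genes above 0 TPM in HepG2. Against the floor of 3 counts in SKHEP1 it was at least 3953-fold higher in HepG2, and only 21 of the 15455 genes compared, RBP4 included, had a ratio as high or higher. The lower bound of the counting interval for RBP4 was 3215-fold.

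TTR (ENSG00000118271.5, chromosome 18, protein-coding), the partner of RBP4 and a thyroxine carrier, reached 1237 counts in HepG2, against 0 in SKHEP1. The HepG2 level was 55.8 CPM (interval 52.7 to 59.0), or 112.53 TPM, rank 1427. Against the floor TTR was at least 376-fold higher in HepG2, and the lower bound of its counting interval was 305-fold. The pair was therefore high in the same line and undetected in the same line, but at unequal levels. Per length, the HepG2 library held 11.5 times as much RBP4 as TTR mRNA, with a counting interval of 10.8 to 12.2.

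Of the 5 other plasma carriers and related genes listed, 2 reached 10 counts, and both were at 0 in SKHEP1. SERPINA7, which encodes thyroxine-binding globulin, had 4344 counts in HepG2 against 0 in SKHEP1, which is a ratio of at least 1319. ALB, or albumin, had 0 and 646438 counts. On the TPM scale the order in HepG2 was ALB at 30615, RBP4 at 1294, SERPINA7 at 223.93 and TTR at 112.53. Each step exceeded counting error: per length ALB was 23.7 times RBP4 (interval 23.2 to 24.1), RBP4 was 5.78 times SERPINA7 (5.58 to 5.98), and SERPINA7 was 1.99 times TTR (1.87 to 2.12). TTR was the least abundant of these 4 carriers in HepG2. LCN1, PTGDS and APOD, lipocalins related to RBP4, had at most 1 count in either line.

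**Figure D2:**
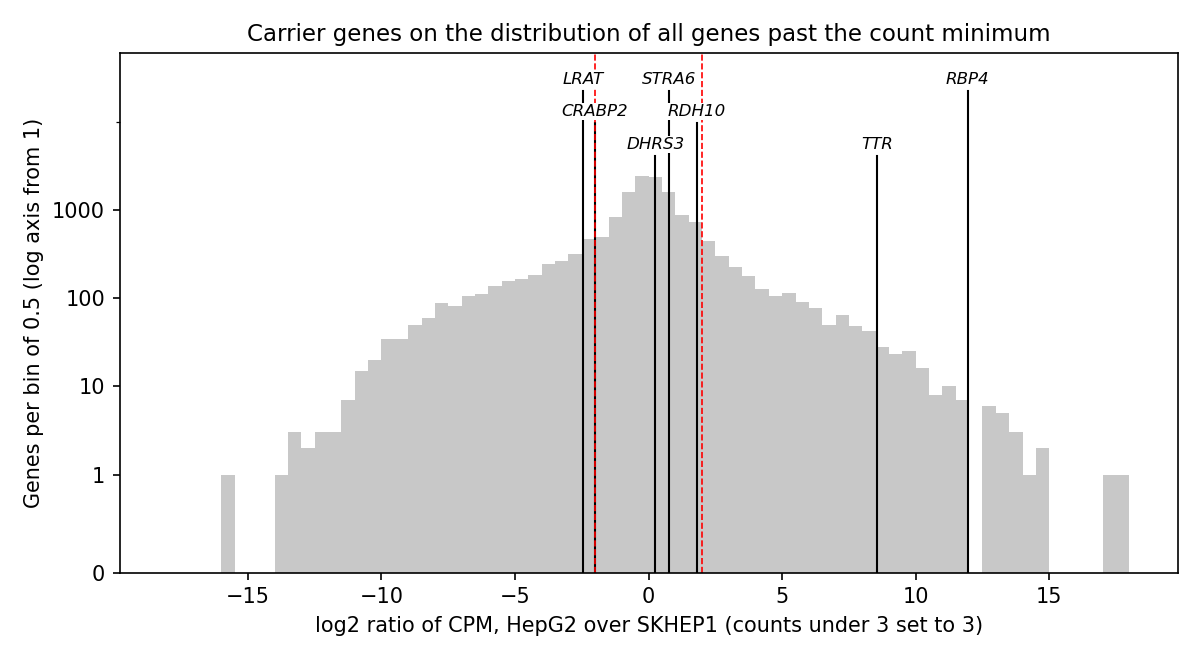
Number of genes (log axis from 1) in bins of 0.5 of the log2 ratio of CPM, HepG2 over SKHEP1, for the 15455 genes that reached 10 counts. Black lines mark the 7 carrier genes among them and red dashed lines mark 4-fold; RBP4 at 11.95 and TTR at 8.55 lie in the right tail, and the other 5 lie between -2.46 and 1.80.

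STRA6 (ENSG00000137868.14, chromosome 15), the cell-surface receptor that takes retinol from RBP4, was close to the detection limit in both lines. HepG2 had 13 counts and SKHEP1 had 7, or 0.586 CPM (0.312 to 1.00) and 0.346 CPM (0.139 to 0.714). The ratio, HepG2 over SKHEP1, was 1.69 with an interval of 0.627 to 5.01, which spans equal levels. The HepG2 library, with abundant RBP4, thus held 0.73 TPM of its receptor.

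LRAT (ENSG00000121207.7, chromosome 4), which esterifies retinol for storage, had 15 counts in SKHEP1 against 0 in HepG2. The SKHEP1 level was 0.742 CPM (0.416 to 1.22), and against the floor LRAT was at least 5.49-fold higher in SKHEP1. The lower bound of its counting interval was 3.94-fold, just under the 4-fold limit. LRAT also did not remain past 4-fold with the deposited TPM values, at a log2 ratio of -1.19. In that calculation the floor takes RSEM's effective length, 1901 bases in HepG2, where no reads were assigned, against 4734 bases in SKHEP1. LRAT is also a marker of hepatic stellate cells. Of 8 stellate markers, LRAT included, 4 in SKHEP1 and 3 in HepG2 reached 10 counts, with a summed level of 21.7 and 16.4 TPM. By the 4-fold limit 3 were higher in SKHEP1, 1 was higher in HepG2 and 1 differed less. Those higher in SKHEP1 were LRAT, RGS5 at 15.8-fold (10.6 to 24.5) and LHX2 with 20 counts against 0, while DES and HAND2 were at 0 in both lines. Their part in the LRAT difference was not tested.

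RDH10 (ENSG00000121039.5, chromosome 8), which oxidises retinol to retinaldehyde in the limiting step towards retinoic acid, differed more between the lines than DHRS3 did. HepG2 had 841 counts and SKHEP1 had 220, or 37.9 CPM (35.4 to 40.6) and 10.9 CPM (9.50 to 12.4). The ratio was 3.48-fold higher in HepG2, with an interval of 2.998 to 4.06 that reaches just past 4-fold. On the deposited TPM scale it was 2.77-fold, from 9.67 to 26.8 TPM, since RSEM gave RDH10 a mean transcript length of 1981 bases in SKHEP1 and 2367 bases in HepG2. RDH10 overlaps RDH10-AS1 and RPL7 on the other strand. No 50-base word of its GENCODE 29 transcripts occurs in those of RPL7, but 5.11% of its words also occur in transcripts of other genes, RDH10-AS1 among them. How RSEM was set to use strand is not stated in the labels, so its level is uncertain to that extent.

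DHRS3 (ENSG00000162496.4, chromosome 1), which reduces retinaldehyde back to retinol, was nearly level between the lines. HepG2 had 316 counts and SKHEP1 had 242, or 14.2 CPM (12.7 to 15.9) and 11.98 CPM (10.52 to 13.6). The ratio was 1.19-fold higher in HepG2 (1.00 to 1.41), and no 50-base word of its transcripts was shared with another gene. RDH10 and DHRS3 act in opposite directions, and their balance differed between the lines. Per length, RDH10 was 0.764 times DHRS3 in SKHEP1 (0.633 to 0.921) and 1.80 times DHRS3 in HepG2 (1.58 to 2.06). From the counts alone, the ratio of RDH10 to DHRS3 was 2.93 times as high in HepG2 as in SKHEP1, with a counting interval of 2.33 to 3.68.

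CRABP2 (ENSG00000143320.4, chromosome 1), which delivers retinoic acid to its nuclear receptors, was barely detected. SKHEP1 had 11 counts and HepG2 had 3, or 0.544 CPM (0.272 to 0.974) and 0.135 CPM (0.0279 to 0.395). The ratio was 4.03-fold higher in SKHEP1 with an interval of 1.06 to 22.5, so its place at the 4-fold limit rests on 14 reads in all. With DESeq2 size factors the log2 ratio was -1.97, just within 4-fold, and by deposited TPM it was 8.19-fold higher in SKHEP1. CRABP1 (ENSG00000166426.7, chromosome 15), its paralogue, had 0 counts in both, and the exact interval reaches 0.183 CPM in SKHEP1 and 0.166 CPM in HepG2. Of the 50-base words in its transcripts, 37.9% are shared with AC011270.2, a gene on the other strand. FABP5, a fatty acid carrier that also binds retinoic acid, was in contrast abundant in both lines, at 337 and 116.8 TPM. Per length it was 158 times CRABP2 in SKHEP1 (88.4 to 318) and 448 times in HepG2 (153 to 2176).

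RARRES1 (ENSG00000118849.5, chromosome 3), a membrane protein gene known as inducible by retinoic acid, also had 0 counts in both libraries. So did 62.8% of all listed genes, noncoding genes and pseudogenes included. In the RARRES1 transcripts 12.7% of 50-base words are shared with MFSD1 or another gene on the other strand. MFSD1 itself had 907 and 793 counts in SKHEP1 and HepG2, with RARRES1 at 0 beside it.

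By a fixed rule, the 2 genes nearest to each better expressed carrier were found in the plane of log2(CPM + 1) in the lines, which is likeness over only 2 libraries. Nearest to RBP4 were NQO1, with 0 and 13009 counts in SKHEP1 and HepG2, and the fibrinogen chain FGB, with 0 and 12767. Nearest to TTR were ZMYM2, with 0 and 1242 counts, and GPD1, with 0 and 1229. NQO1 and ZMYM2 are known as genes of many cell types and are likewise listed at 0 in SKHEP1, and whether any such 0 reflects a missing transcript or the estimate was not tested. Nearest to RDH10 were DHRS4-AS1 (219 and 841 counts) and XXYLT1 (227 and 810), and nearest to DHRS3 were TMEM68 (237 and 317) and COQ10A (244 and 323).

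The genes around the carriers in the same pathways were taken from 8 lists. Of 96 matched genes, 63 reached 10 counts in a library. By the 4-fold limit, 24 of these were higher in HepG2 and 14 in SKHEP1, and 25 differed less. Over all 15455 genes compared, 13.0% were higher in HepG2 by that limit, 16.5% in SKHEP1 and 29.4% in either direction. The median log2 ratio was 0.95 over the 63 genes and -0.03 over all genes. The 63 genes include those that reached 10 counts in only a single line, so these counts and this median support no direction. The same shares and limit apply to the counts of each list below.

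**Figure D3:**
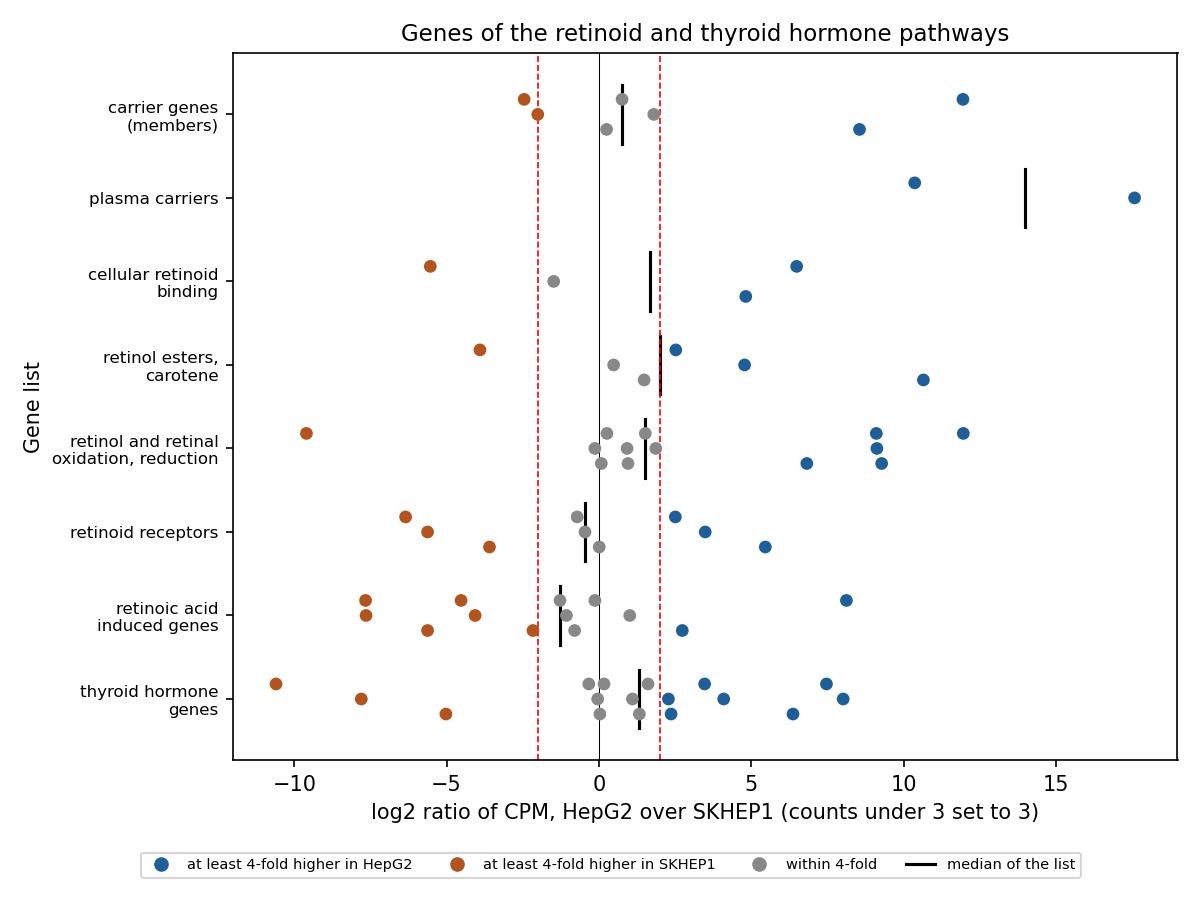
log2 ratio of CPM, HepG2 over SKHEP1, for each gene that reached 10 counts in a library, by list; 1 point is 1 gene, black bars are list medians and red dashed lines mark 4-fold. Colours show genes at least 4-fold higher in HepG2 (blue) or SKHEP1 (brown) and those within (grey). Of the lists of more than 2 genes, each has genes past 4-fold on both sides, and retinoic acid breakdown has none past the minimum.

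Cellular retinol binding proteins differed between the lines in both directions. RBP5 had 296 counts in HepG2 against 0, a ratio of at least 89.9, whereas RBP7 had 296 counts in SKHEP1 against 7 and was 46.4-fold higher in SKHEP1 (22.3 to 116). Of 4 binding proteins past the minimum, 2 were higher in HepG2 and 1 in SKHEP1, and FABP5 differed less than 4-fold.

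For retinyl esters and carotene, 3 of 6 genes past the minimum were higher in HepG2, 2 differed less and 1 was higher in SKHEP1. The carboxylesterase CES1, which can hydrolyse retinyl esters, had 5296 counts in HepG2 against 0, a ratio of at least 1608. DGAT1, an acyltransferase that can esterify retinol as LRAT does, was 5.75-fold higher in HepG2 (5.04 to 6.57), at 15.1 against 86.1 TPM. LRAT had 0 counts in HepG2, and a link between its level and that of DGAT1 was not tested. The lipid receptor CD36 exceeded its SKHEP1 level 27.5-fold in HepG2 (12.4 to 75.9), or 42.2-fold by TPM, and the lipoprotein receptor SCARB1 did so 2.79-fold (2.64 to 2.95). LIPE, or hormone-sensitive lipase, was seen in SKHEP1 alone, with 41 counts.

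In the oxidation step that follows RDH10, each line expressed a different retinaldehyde dehydrogenase. ALDH1A1 had 17506 counts in HepG2 against 4, a ratio of 3986 (1557 to 14632). ALDH1A3 was at 2126 counts in SKHEP1 against 0, a ratio of at least 778 the other way. ALDH1A1 was 99.9% of the family's 644 TPM in HepG2, and ALDH1A3 99.7% of its 55.7 TPM in SKHEP1. Of 13 genes of retinol and retinal oxidation and reduction past the minimum, 5 were higher in HepG2 and 1 in SKHEP1, and 7 differed less. AKR1B10, a retinaldehyde reductase, and ADH4, a retinol-oxidising alcohol dehydrogenase, had 2047 and 1837 counts in HepG2 and none in SKHEP1. The reductase RDH11 was nearly level, at 69.2 and 71.2 TPM. The retinoic acid hydroxylases CYP26A1, CYP26B1 and CYP26C1, which break the ligand down, had at most 1 count in either line, as had CYP2C8 and CYP3A4.

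The receptors of retinoic acid also differed by isotype. Of 9 receptors past the minimum, 3 were higher in each line and 3 differed less. RARA was level, with 447 counts in HepG2 and 405 in SKHEP1, at a ratio of 1.01 (0.877 to 1.15). RARG was 81.5-fold higher in SKHEP1 (49.9 to 143), at 1187 against 16 counts, and RARB, itself a retinoic acid target, had 135 and 0 counts, a ratio of at least 49.4. RXRA, the obligate partner most abundant in liver, was 5.68-fold higher in HepG2 (5.04 to 6.43), at 5.71 against 40.2 TPM. RXRB was 1.64-fold higher in SKHEP1 (1.499 to 1.80), and RXRG had 0 counts in both. Summed levels were 63.1 TPM in SKHEP1 and 19.4 TPM in HepG2 for the 3 RAR genes, and 44.2 and 64.0 TPM for the 3 RXR genes. The related orphan receptor RORA was 11.2-fold higher in HepG2 by counts (6.74 to 20.01) but 2.10-fold by deposited TPM, at 1.70 against 3.57 TPM, which is within 4-fold. RSEM gave RORA a mean length of 933 bases in SKHEP1 and 4012 bases in HepG2.

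**Figure D4:**
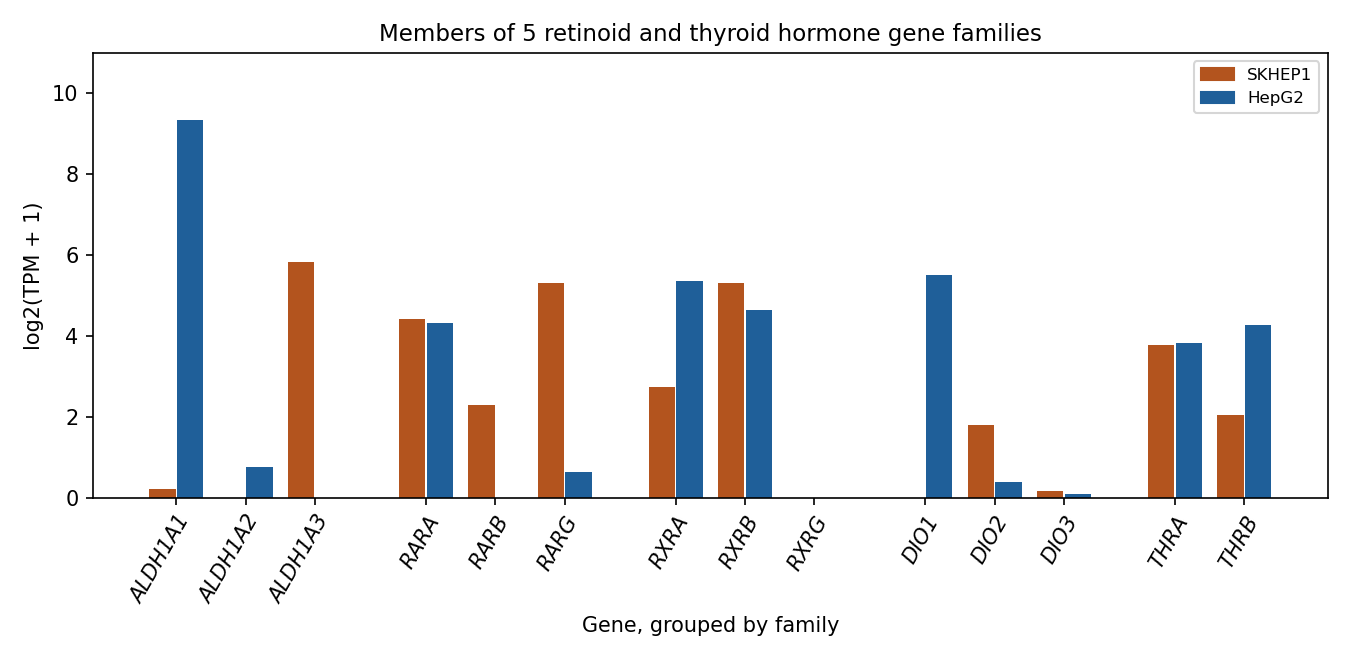
log2(TPM + 1) of the members of 5 families in SKHEP1 (brown bars) and HepG2 (blue bars), 1 library each, from the deposited TPM values. The tallest bar of each family belongs to a different gene in each line, for example ALDH1A3 in SKHEP1 and ALDH1A1 in HepG2.

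Genes known to respond to retinoic acid did not move with a single sign. Of 13 past the minimum, 6 were higher in SKHEP1 and 2 in HepG2, while 5 differed less. The shares over all genes were 16.5% and 13.0%. The median log2 ratio was -1.28, against -0.03 over all genes. Of the 13, 12 reached 10 counts in SKHEP1 and 10 in HepG2, so some passed through a single line, and count and median support no direction. The transglutaminase TGM2 was 203-fold higher in SKHEP1 (185 to 222), and TNFAIP2 200-fold (125 to 344). RARRES2, which encodes the adipokine chemerin, had 918 counts in HepG2 against 0, and the corepressor NRIP1 was 6.66-fold higher in HepG2 (6.04 to 7.35). In HepG2 RARRES1 was thus at 0 and RARRES2 at 108.8 TPM.

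Of 17 thyroid hormone genes past the minimum, 7 were higher in HepG2 and 3 in SKHEP1, and 7 differed less. Of the hormone transporters, SLCO2B1 had 2 and 583 counts and SLC16A10 (MCT10) 4 and 363 in SKHEP1 and HepG2. The liver deiodinase DIO1 had 853 counts in HepG2 against 0, a ratio of at least 259, whereas DIO2 had 89 counts in SKHEP1 against 1 in HepG2. The receptor THRA was nearly level, at 12.7 and 13.2 TPM, and THRB, the main form in liver, was 5.16-fold higher in HepG2 (4.39 to 6.09). ME1, the malic enzyme and a thyroid hormone target in liver, went the other way, with 610 counts in SKHEP1 against 0.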

How the data were processed

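Gene tables of 2 cell lines, 1 library each, were used, grouped by the cell line labels. RNA was column-purified and libraries were made with a stranded mRNA kit, per the labels' protocols. The build hg19 and the tools DESeq2, RSEM, STAR and cutadapt are named, without versions, per the submitters' processing notes. The annotation and strand setting were not given in the sources used here. Per the file headers, the deposited tables hold RSEM expected counts, TPM, FPKM and gene and effective lengths. From these, expected counts were rounded and scaled by TMM (edgeR 4.0.16 in R 4.3.3), with factors of 1.01 for SKHEP1 and 0.987 for HepG2. Genes that reached 10 counts in a library were compared. Ratios of 4 or more count as higher, and counts under 3 were set to 3, so such ratios are lower bounds of the observed ratio ("at least"). The lower bound of the counting interval can lie below such a ratio. Genes with 1 to 3 counts are given by their raw ratio. Levels have exact 95% Poisson intervals and ratios exact conditional Clopper-Pearson intervals. No test was made, since no line has a replicate. TPM was used to compare genes with each other. The script was tested on simulated data.

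The members, lists and naming rule were chosen with earlier results of these data known. The lists hold plasma carriers, cellular retinoid binding, retinol esters and carotene, retinol and retinal oxidation and reduction, retinoic acid breakdown, retinoid receptors, retinoic acid induced genes and thyroid hormone genes. Markers were also listed for hepatocytes, endothelium, stellate cells, mesenchyme, bile duct, retinal pigment epithelium and choroid plexus. The rule, some of whose genes are not reported here, named the 9 genes; per list up to 4 genes with at least 100 counts and the largest log2 ratio, with up to 2 the other way; the RAR, RXR and THR genes; and the 2 nearest genes of each carrier with at least 100 counts. Named outside it, after their values were seen, were RDH11, DHRS2, CDH5, KDR, DES, HAND2, RGS5, LHX2, ENG, RPL7, the CYP26 genes, CYP2C8, CYP3A4, DIO2, SLC16A10, LCN1, PTGDS, APOD and MFSD1. KLF9, HR, VIM and LUM were likewise named outside the rule. Words of 50 bases were compared among GENCODE 29 transcripts. Alternatives were total counts, DESeq2 1.42.0 size factors, TPM, FPKM, thinning, a prior count of 2, unrounded counts, other minimums and limits, and the interval bound. Intervals came from scipy 1.17.1 and plots from matplotlib 3.10.9, under Python 3.11.15, with pandas 2.3.3 and numpy 2.4.6.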

Additional observations from a re-analysis of the deposited data

How the results depend on the processing

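RBP4 and TTR were the 2 genes at least 4-fold higher in HepG2 under all 12 alternatives, joined by RDH10 with a limit of 2-fold, which makes 3. Their log2 ratios lay between 11.91 and 12.53 for RBP4 and between 8.37 and 9.14 for TTR over 8 settings of scale and unit. RDH10 lay between 1.47 and 1.84, DHRS3 between 0.19 and 0.29, STRA6 between 0.55 and 0.91, CRABP2 between -3.03 and -1.51 and LRAT between -3.22 and -1.19. The count of 2 genes higher in SKHEP1 was not stable. It was 1 with DESeq2 size factors, with the HepG2 library thinned to the SKHEP1 total and with a prior count of 2, where CRABP2 fell within 4-fold, and 1 with deposited TPM or deposited FPKM, where LRAT did. It was 0 with a minimum of 50 counts, a limit of 8-fold or the interval bound nearest to 1. The pathway counts of 24 and 14 lay between 19 and 31 and between 12 and 17, within 1.5 times. No paired analysis was possible because each line has 1 library. Depth limits CRABP1, CRABP2, STRA6, LRAT and RARRES1, which lay at or under 15 counts.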

Other observations

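Several families held a different leading gene in each line, a pattern seen after the values were examined and given without a test. By TPM, SKHEP1 was led by ALDH1A3, RARG, RXRB, DIO2 and THRA in their families, and HepG2 by ALDH1A1, RARA, RXRA, DIO1 and THRB. The share of the leading gene in SKHEP1 and HepG2 was 61.5% and 97.1% for the RAR genes, 87.1% and 62.8% for the RXR genes, 95.4% and 99.2% for the deiodinases, and 80.1% and 58.1% for the thyroid hormone receptors. The families were chosen with these values in view. In the CRABP family CRABP2 led in both lines, and the CYP26 family had 1 count in each.

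DHRS2, a short-chain dehydrogenase related to DHRS3, had 54384 counts in HepG2 against 90 in SKHEP1, a 550-fold difference (448 to 685). At 2440 TPM it exceeded RBP4 in HepG2, while DHRS3 was at 14.9 TPM there.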
